A study of Homo sapiens with 49 samples.

Results

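Integrins and laminins are the receptor and ligand sides of the epithelial basement membrane. The genes described here were all those on the array whose symbol names an integrin alpha subunit, an integrin beta subunit or a laminin chain of the families LAMA, LAMB and LAMC. There were 35 of them among 19774 genes that the platform annotation gives a probe set of their own, and each was represented by its probe set with the highest mean over the 49 arrays. A gene counted as measured if its log2 level exceeded 4 on at least 6 arrays, which 17 of the 35 did, against 11075 genes on the whole array.

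Ishikawa cells are a continuous line grown from an endometrial adenocarcinoma, and they stand in for the epithelium of the uterus without its stroma, vessels or immune cells. The cells were grown in medium with charcoal-stripped serum and no phenol red, which lowers the estrogen background, and were then exposed for 72 h. The vehicle group received ethanol (6 arrays). The other 7 groups received ethinyl estradiol, the synthetic estrogen of contraceptive pills, at 0.1 pM (6 arrays), 0.3 pM (7 arrays), 1, 3, 10, 100 or 1000 pM (6 arrays each), in the same ethanol. Every group was the same line, with no genetic change named in the labels. Nothing in the labels ties a replicate to a culture of its own, so the p-values speak of the spread among these samples, and that may be technical.

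Each integrin is a pair of 1 alpha and 1 beta subunit in the cell membrane. The alpha subunit does much to select the ligand, and the beta subunit carries most of the contacts with the cytoskeleton. Laminins are cross-shaped trimers of an alpha, a beta and a gamma chain that polymerise into the sheet under an epithelium, where they are bound by integrins that contain ITGA6, ITGA3, ITGA7 or, less tightly, ITGA2. In the endometrium the pair of ITGAV and ITGB3 is widely used as a marker of the receptive phase of the cycle.

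Of the 35 genes, 24 had a promoter entry in RefSeq (GRCh38.p14), among them 14 of the 17 measured ones. The sequences below are the 250 bases that precede the outermost annotated start of the 4 genes that passed the test at 1000 pM, and they are shown so that the 2 rising genes (ITGA6 and LAMB3) can be read beside the 2 falling ones (ITGB6 and LAMC1). They run 5′ to 3′ on the strand of the gene. Capitals mark matches, on either strand, to a GC box (GGGCGG, or CCGCCC on the other strand).

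ITGA6, chr2:172427086-172427335, plus strand: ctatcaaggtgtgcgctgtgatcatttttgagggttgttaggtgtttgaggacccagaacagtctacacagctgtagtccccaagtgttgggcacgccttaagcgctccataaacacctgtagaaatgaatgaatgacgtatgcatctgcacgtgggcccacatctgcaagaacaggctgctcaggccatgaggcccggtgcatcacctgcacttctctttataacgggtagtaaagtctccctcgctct

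LAMB3, chr1:209652426-209652675, minus strand: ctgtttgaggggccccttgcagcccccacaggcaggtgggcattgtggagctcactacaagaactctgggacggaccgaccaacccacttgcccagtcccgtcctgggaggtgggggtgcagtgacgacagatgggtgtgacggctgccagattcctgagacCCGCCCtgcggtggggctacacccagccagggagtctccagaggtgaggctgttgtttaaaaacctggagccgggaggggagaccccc

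ITGB6, chr2:160200273-160200522, minus strand: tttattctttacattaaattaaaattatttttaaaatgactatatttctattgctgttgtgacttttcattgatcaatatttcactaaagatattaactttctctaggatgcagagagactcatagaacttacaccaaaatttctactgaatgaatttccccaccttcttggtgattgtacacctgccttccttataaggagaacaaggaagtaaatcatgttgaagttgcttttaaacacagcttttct

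LAMC1, chr1:183023170-183023419, plus strand: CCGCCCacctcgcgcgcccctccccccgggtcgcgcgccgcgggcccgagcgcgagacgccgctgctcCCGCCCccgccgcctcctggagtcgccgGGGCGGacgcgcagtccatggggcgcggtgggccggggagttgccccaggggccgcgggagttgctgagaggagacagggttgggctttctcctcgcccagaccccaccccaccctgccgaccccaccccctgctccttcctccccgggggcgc

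The 4 windows differed in base composition: G and C made up 50.8% of the ITGA6 window, 64.0% of that of LAMB3, 30.0% of that of ITGB6 and 79.6% of that of LAMC1. LAMC1 held 3 GC boxes, whose first bases lay 250, 182 and 154 bases before the start, and LAMB3 held 1, at 88 bases. The windows of ITGA6 and ITGB6 held none. A second annotated start of ITGA6 had 3 GC boxes in its own window, at 217, 106 and 55 bases. The last of 3 annotated starts of LAMB3 had the AP-1 motif TGACTCA (searched as TGANTCA) at 67 bases and a GC box at 52 bases. GC boxes occurred in 42.6% of all 35116 windows of this length and the AP-1 motif in 6.57%. The palindromic estrogen response element (GGTCA and TGACC, 3 bases apart, in 0.0399% of all windows), its half-site (GGTCA, 32.6%) and the TEAD motif (GGAATG, 11.9%) had no match in any window of these 4 genes, and no matches overlapped. These are matches of letters in a short window, and binding was not measured.

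The arrays were alike in their medians (log2 2.95 to 3.05), but 4 stood apart. They were replicate 5 of vehicle, replicate 2 at 0.3 pM and replicate 6 at both 3 and 1000 pM. On them the beta-actin control at the 3′ end was 2.67 to 4.62 brighter (log2) than that at the 5′ end, against 0.80 to 2.06 on the other 45 arrays, a measure of RNA quality called the actin difference below. Results that rest on these arrays are given with and without them. All 6 epithelial markers tested (EPCAM, CDH1, KRT8, KRT18, KRT19 and PAX8) were measured, while 0 of 4 endothelial, 0 of 5 stromal and 0 of 3 platelet markers were. Of 5 leukocyte markers 1 was measured, LCP1 at a mean of 9.01, and the defining ones PTPRC, CD3E, CD14 and CD68 stayed under the floor on every array. Lower RNA per cell and fewer cells that express a gene cannot be told apart in such bulk samples.

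The 18 genes that were not measured had means of 1.99 to 3.56, and their highest single value was 4.22. They were the alpha subunits ITGA2B, ITGA3, ITGA4, ITGA5, ITGA8, ITGA9, ITGA10, ITGA11, ITGAD, ITGAL, ITGAM and ITGAX, the beta subunit ITGB2, and the laminin chains LAMA1, LAMA2, LAMA4, LAMB4 and LAMC3. Single values above 4 occurred for ITGA2B on 2 arrays and for ITGA3 and ITGA5 on 1 array each. The 5 integrins of leukocytes (ITGAD, ITGAL, ITGAM and ITGAX with their shared partner ITGB2) lay between 1.85 and 3.31 on all arrays. For these 18 genes the arrays gave no usable level and no change was tested.

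Among the measured adhesion receptors and laminins, the differences from vehicle that passed the test lay at 10 pM and above. At 1000 pM, ITGA6 and LAMB3 were higher than in vehicle, and ITGB6 and LAMC1 were lower, 4 of 17 by limma's moderated test at an adjusted p under 0.05, beside 7.21% of all genes tested (2.88% higher and 4.33% lower). At 100 pM, 1 gene was higher (ITGA6) and 4 were lower (ITGA7, ITGB6, LAMA5 and LAMC1), beside 10.1% of all genes (3.85% higher and 6.27% lower). When only the 2 groups compared were fitted, ITGA6 kept its calls at 100 and 1000 pM and LAMB3 its call at 1000 pM (beside 2.62% of all genes at 100 pM and 2.78% at 1000 pM), and the other calls at these concentrations were lost, with limma adjusted p values from 0.0856 (LAMC1 at 100 pM) to 0.218 (LAMA5 at 100 pM). At 10 pM only ITGA6 passed, beside 0.858% of all genes (0.506% higher and 0.352% lower). At 3 pM 0 of 17 passed (0.153% of all genes did), and at 0.1, 0.3 and 1 pM 0 of 17 passed and so did 0% of all genes, with 0, 0 and 2 members under an unadjusted limma p of 0.05 at these 3 concentrations and 1 member at 3 pM. The median log2 change of the 17 genes at 1000 pM was −0.17, and that of all genes was −0.01.

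**Figure D1:**
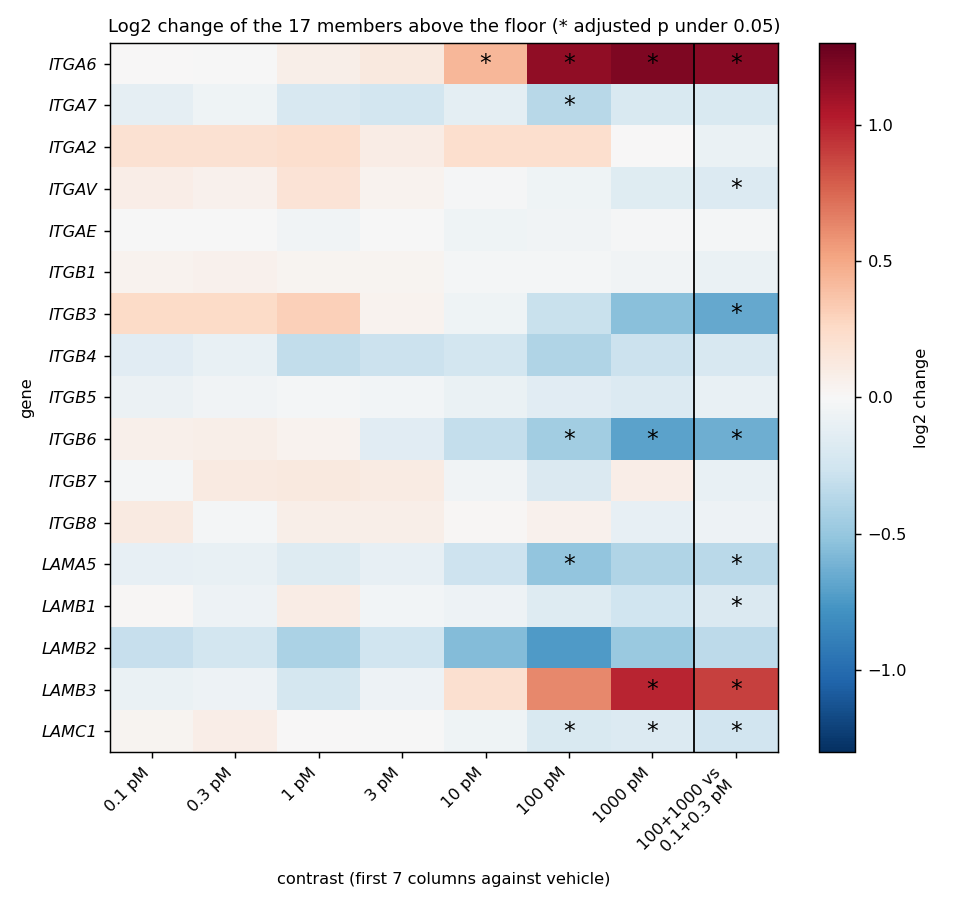
Log2 change (colour, red higher and blue lower) of the 17 measured genes (rows) at each concentration against vehicle, and in the last column for the mean of 100 and 1000 pM against the mean of 0.1 and 0.3 pM. Asterisks mark an adjusted p under 0.05 by limma. ITGA6 is marked from 10 pM on and LAMB3 at 1000 pM, while ITGB6 and LAMC1 are marked as lower at 100 and 1000 pM.

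ITGA6 encodes the alpha subunit that pairs with ITGB1 or ITGB4 to bind laminin, and with ITGB4 it forms hemidesmosomes, the rivets between an epithelial cell and its basement membrane. Its log2 level lay between 7.97 and 8.39 in vehicle (median 8.18), between 8.05 and 8.50 at 0.1 pM (8.18) and between 8.06 and 8.46 at 0.3 pM (8.15). At 1 pM it ranged from 7.99 to 8.51 (median 8.27) and at 3 pM from 8.07 to 8.49 (8.35). These 5 groups overlapped throughout. At 10 pM the range was 8.28 to 8.99 (median 8.66), at 100 pM 9.03 to 9.57 (9.42) and at 1000 pM 9.22 to 9.57 (9.43). Every array at 100 and 1000 pM lay above every vehicle array, and the 10 pM arrays ran from within the vehicle range to just under that of 100 pM.

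The rise of ITGA6 was 0.44 ± 0.10 (SE, log2) at 10 pM (limma adjusted p = 0.0126), 1.16 ± 0.10 at 100 pM (1e-12) and 1.22 ± 0.10 at 1000 pM (1.5e-13), the last a 2.32-fold rise. Only 43 of the 11075 genes had a larger change in size at 1000 pM. Between consecutive concentrations, the step from 10 to 100 pM was the one that passed (0.72 ± 0.10, limma adjusted p = 2.25e-06). From 100 to 1000 pM the difference was 0.06 ± 0.10 (limma adjusted p = 0.981), so these neighbours did not differ beyond their spread. A second probe set of ITGA6 rose by 1.75 ± 0.25 at 1000 pM (limma adjusted p = 1.73e-06). The call at 10 pM was lost without vehicle replicate 5 or without 10 pM replicate 1, 2 or 3 (adjusted p up to 0.0807), and those at 100 and 1000 pM held without any single array.

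**Figure D2:**
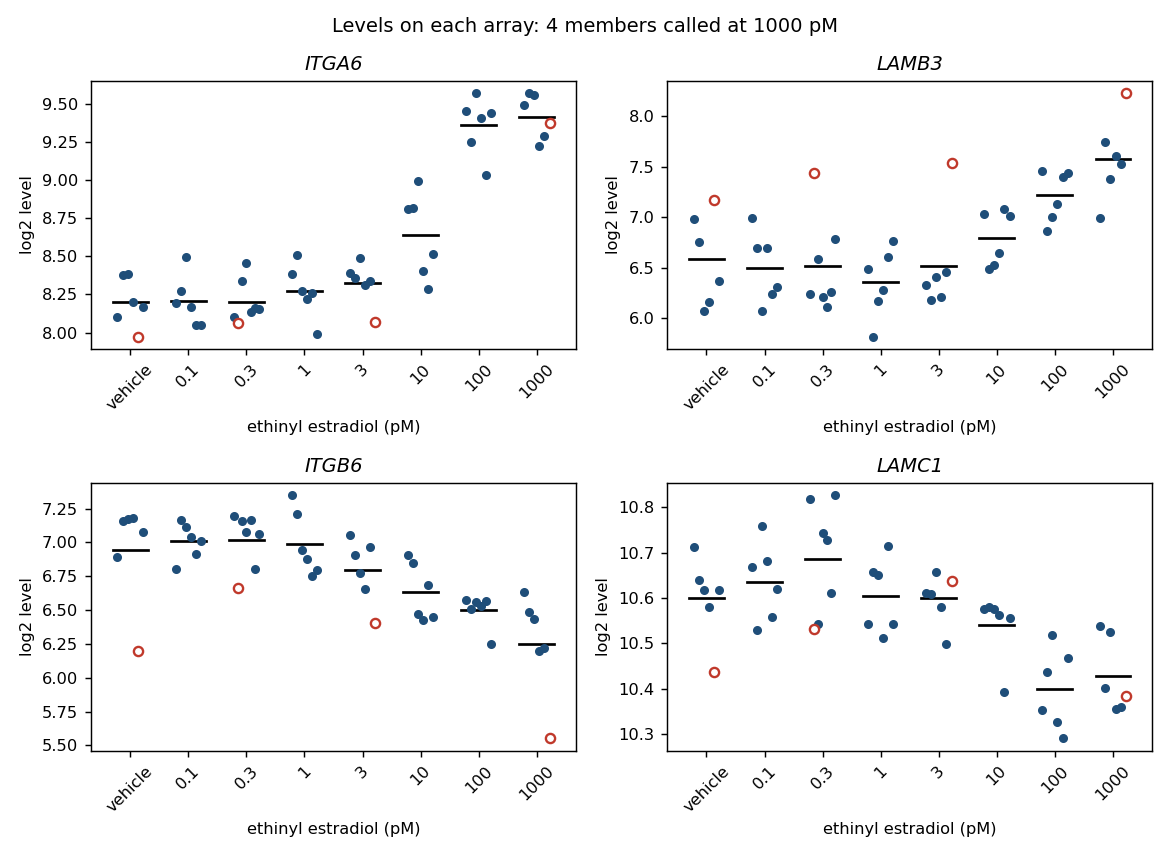
Log2 level (vertical axis) of ITGA6, LAMB3, ITGB6 and LAMC1 on each array, by ethinyl estradiol concentration in pM (horizontal axis). Black lines are group means, and open circles are the 4 arrays whose actin difference was high. The 100 and 1000 pM arrays of ITGA6 lie wholly above vehicle, and the open circles of LAMB3 lie high in their groups and those of ITGB6 low.

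LAMB3 encodes the beta chain of the laminin that anchors hemidesmosomes. Its level ranged from 6.08 to 7.17 in vehicle (median 6.56), from 6.07 to 6.99 at 0.1 pM (6.50) and from 6.12 to 7.44 at 0.3 pM (6.26). It ranged from 5.82 to 6.76 at 1 pM (median 6.38), 6.18 to 7.53 at 3 pM (6.37) and 6.49 to 7.08 at 10 pM (6.83). At 100 pM it reached 6.86 to 7.46 (median 7.27) and at 1000 pM 6.99 to 8.23 (7.56). The 2 highest groups were shifted upward but shared values with the vehicle range, where replicate 5 was the highest array. The level at 1000 pM was 0.99 ± 0.22 above vehicle (limma adjusted p = 0.0012), 1.99-fold, with 6 of 6 arrays above the vehicle mean. At 100 pM the difference was 0.63 ± 0.22 (limma adjusted p = 0.052).

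All 4 arrays with a high actin difference lay higher for LAMB3, relative to the other arrays of their group, than any of the remaining 45 did. Without them, vehicle spanned 6.08 to 6.99 and 1000 pM 6.99 to 7.74, the rise at 1000 pM was 0.98 ± 0.17 (limma adjusted p = 2.98e-05), and that at 100 pM was 0.75 ± 0.16 and passed (0.00105). The rise at 1000 pM therefore was as large without these arrays. It also held without any single array of the 2 groups, between 0.86 and 1.11, but did not pass in a fit of only these groups with the replicate number as a block (limma adjusted p = 0.0945).

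The other subunits of the laminin receptors gave smaller values. ITGB4, the hemidesmosome partner of ITGA6, ranged from 4.49 to 5.78 in vehicle and from 4.43 to 5.13 at 1000 pM, a difference of −0.28 ± 0.16 (limma adjusted p = 0.344). ITGB1, the shared beta subunit of most integrins, ranged from 11.69 to 12.08 over all arrays and differed by −0.05 ± 0.05 at 1000 pM (95% interval −0.15 to 0.05). ITGA2, the collagen receptor subunit, differed by 0.01 ± 0.13 (95% interval −0.26 to 0.27). The lowest vehicle array of ITGA2 (6.33) was among the 4 with a high actin difference. Without those 4 arrays the mean of ITGA2 was 7.51 in vehicle and 7.39 at 1000 pM. With all arrays, a rise of the size seen in ITGA6 lay outside the intervals of these probe sets of ITGB1 and ITGA2. Other, dimmer probe sets of ITGB1 gave 0.18 ± 0.31 and 0.10 ± 0.31 at 1000 pM (limma adjusted p = 0.804 and 0.899). At 100 pM they gave 0.42 and 0.44 (0.361 and 0.347).

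ITGA7, a laminin receptor subunit best known from muscle, ranged from 4.68 to 5.25 in vehicle (median 4.78), from 4.20 to 4.77 at 100 pM (4.53) and from 4.36 to 5.00 at 1000 pM (4.63). It was lower at 100 pM by limma (−0.36 ± 0.12, adjusted p = 0.0436), though the 2 groups overlapped, and the difference at 1000 pM was −0.20 ± 0.12 (0.372). The value at 100 pM was −0.29 ± 0.12 without the 4 arrays and did not pass (adjusted p = 0.102). The call was also lost in 6 of 12 fits that left out 1 array (vehicle replicate 3 or 5, or 100 pM replicate 1, 3, 4 or 6), with an adjusted p up to 0.174. On every array ITGA7 lay close above the floor of log2 4 (4.20 to 5.25), which limits these values.

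ITGB6 pairs with ITGAV on epithelial cells, where it binds fibronectin and activates latent transforming growth factor beta. Its level ranged from 6.20 to 7.18 in vehicle (median 7.12), 6.80 to 7.17 at 0.1 pM (7.03) and 6.66 to 7.19 at 0.3 pM (7.08). It then ranged from 6.76 to 7.35 at 1 pM (median 6.91), 6.41 to 7.06 at 3 pM (6.84) and 6.43 to 6.91 at 10 pM (6.58). At 100 pM the range was 6.25 to 6.57 (median 6.55) and at 1000 pM 5.55 to 6.63 (6.32). The lowest vehicle array, replicate 5, lay inside the 1000 pM range, while the other vehicle arrays lay above it.

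Against vehicle, ITGB6 fell by 0.45 (log2) at 100 pM (SE 0.14, limma adjusted p = 0.0356) and by 0.69 at 1000 pM (SE 0.14, 5.34e-04), the latter a 1.62-fold fall with 6 of 6 arrays below the vehicle mean. All 4 arrays with a high actin difference lay lower for ITGB6 than any of the other 45, relative to their groups. Without them the difference was −0.70 ± 0.10 at 1000 pM (limma adjusted p = 9.93e-07), −0.60 ± 0.10 at 100 pM (1.35e-05) and −0.46 ± 0.10 at 10 pM, where it then passed (0.00342). The call at 100 pM was lost on leaving out vehicle replicate 2, 3 or 4 or 100 pM replicate 3, 4 or 6 (adjusted p up to 0.0842). The call at 1000 pM was lost when only its 2 groups were fitted (limma adjusted p = 0.0946, or 0.155 with the replicate number as a block).

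ITGB3, the partner of ITGAV in the vitronectin receptor and of ITGA2B on platelets, depended on which arrays were used. Its level ranged from 4.01 to 6.07 in vehicle (median 5.74), 5.60 to 6.04 at 0.1 pM (5.72) and 5.18 to 6.12 at 0.3 pM (5.84). It was 5.66 to 5.96 at 1 pM (median 5.88), 5.14 to 5.76 at 3 pM (5.61) and 5.37 to 5.63 at 10 pM (5.47). At 100 pM it was 5.08 to 5.31 (median 5.24) and at 1000 pM 4.48 to 5.24 (5.06). The lowest vehicle value, again replicate 5, was below every other array of the series, and the next lowest vehicle array was at 5.66, above every array at 100 and 1000 pM.

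With all arrays the difference of ITGB3 from vehicle at 1000 pM was −0.54 ± 0.18 and did not pass (limma adjusted p = 0.0555). Without the 4 arrays, vehicle spanned 5.66 to 6.07 and 1000 pM 4.88 to 5.24, the difference was −0.75 ± 0.09 (limma adjusted p = 6.53e-09), and those at 100 pM (−0.59 ± 0.08, 7.05e-07) and 10 pM (−0.35 ± 0.08, 0.0146) passed as well. Leaving out vehicle replicate 5 alone gave −0.85 ± 0.12 at 1000 pM (5.35e-07). A second, dimmer probe set of ITGB3 gave −0.67 ± 0.19 with all arrays (limma adjusted p = 0.0223). That p was adjusted over all probe sets above the floor, and the first probe set had 0.0741 in the same fit. The mean of the second probe set was 4.50 in vehicle and 3.83 at 1000 pM. The latter is under the floor of log2 4, so the size of its change is uncertain. The part of RNA quality in these differences was not tested.

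**Figure D3:**
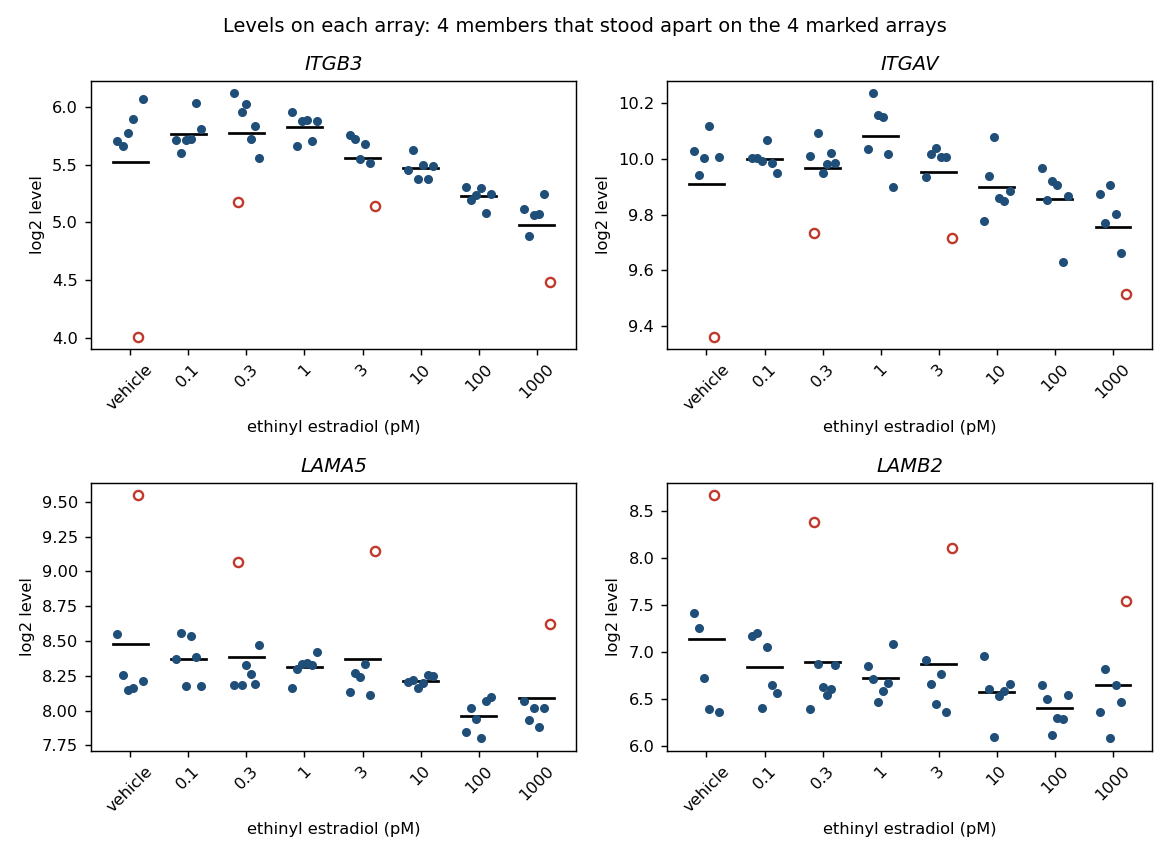
Log2 level (vertical axis) of ITGB3, ITGAV, LAMA5 and LAMB2 on each array by ethinyl estradiol concentration in pM (horizontal axis). Black lines are group means over all arrays, and open circles are the 4 arrays whose actin difference was high, which lie below the other arrays of their groups for ITGB3 and ITGAV and above them for LAMA5 and LAMB2.

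ITGAV, the alpha subunit that pairs with ITGB3, ITGB5, ITGB6, ITGB8 and ITGB1, gave smaller values. It ranged from 9.36 to 10.12 in vehicle (median 10.01), 9.63 to 9.97 at 100 pM (9.89) and 9.51 to 9.91 at 1000 pM (9.79). The groups overlapped, and the difference at 1000 pM was −0.16 ± 0.08 (limma adjusted p = 0.292). Without the 4 arrays, which were the lowest of their groups for this gene, it was −0.22 ± 0.05 (adjusted p = 0.00411), and that at 100 pM was −0.16 ± 0.05 (0.0297). Its partners ITGB5 and ITGB8 differed by −0.18 ± 0.06 (0.0804) and −0.10 ± 0.11 (0.659) at 1000 pM with all arrays. A second probe set of ITGB5 differed by −0.32 ± 0.09 and passed (limma adjusted p = 0.0147, adjusted over all probe sets above the floor). In the same fit the first probe set did not pass (0.100). Nor did the other probe sets of this gene above the floor (−0.12 ± 0.17, 0.768, and −0.48 ± 0.22, 0.252).

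ITGAE, the CD103 subunit of lymphocytes that lodge in epithelia, was measured on every array, between 9.68 and 9.90, with group means from 9.75 to 9.80. Its difference at 1000 pM was −0.01 ± 0.03 (95% interval −0.08 to 0.06). The beta subunit with which it forms the receptor for E-cadherin, ITGB7, exceeded 4 on 9 of the 49 arrays (range 3.28 to 4.43), so it passed the floor narrowly. ITGB7 differed by 0.09 ± 0.14 at 1000 pM.

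LAMC1 encodes the gamma chain found in most laminins. It ranged from 10.44 to 10.71 in vehicle (median 10.62), 10.53 to 10.76 at 0.1 pM (10.64), 10.53 to 10.83 at 0.3 pM (10.73) and 10.39 to 10.58 at 10 pM (10.57). At 100 pM it ranged from 10.29 to 10.52 (median 10.40) and at 1000 pM from 10.36 to 10.54 (10.39). The shift was small: 6 of 6 arrays lay below the vehicle mean at each of 10, 100 and 1000 pM, and the ranges overlapped at the low end of vehicle. It fell by 0.20 (log2) at 100 pM (SE 0.05, limma adjusted p = 0.00789) and fell by 0.17 at 1000 pM (SE 0.05, 0.0272), a 1.13-fold fall.

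The call of LAMC1 at 1000 pM was lost in 6 of 12 fits that left out 1 array (vehicle replicate 1 or 2, or 1000 pM replicate 2, 4, 5 or 6), with an adjusted p up to 0.0844. The call at 100 pM held in all 12 such fits, but was lost when replicate 1 was left out of every group (limma adjusted p = 0.0706). With only the 2 groups fitted, both calls were lost (0.148 at 1000 pM and 0.0856 at 100 pM). Without the 4 arrays the difference at 1000 pM was −0.20 ± 0.05 (limma adjusted p = 0.007). A second probe set of LAMC1 gave −0.16 ± 0.06 at 1000 pM and did not pass (0.179). At 100 pM the second probe set gave −0.08 and did not pass either (limma adjusted p = 0.411). In the same fit, adjusted over all probe sets above the floor, the first probe set gave −0.20 there and passed (0.0105). In the contrast without vehicle, described below, the second probe set gave −0.15 ± 0.04 and passed (limma adjusted p = 0.0204).

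LAMA5 encodes the alpha chain of the laminins typical of adult epithelia. Its level ranged from 8.15 to 9.55 in vehicle (median 8.23), 8.16 to 8.25 at 10 pM (8.21), 7.80 to 8.09 at 100 pM (7.98) and 7.88 to 8.62 at 1000 pM (8.02). The 100 pM arrays lay wholly below vehicle, and 5 of 6 arrays at 1000 pM lay below the vehicle mean. With all arrays it fell by 0.52 (log2) at 100 pM (SE 0.16, limma adjusted p = 0.0303), and the difference at 1000 pM was −0.39 ± 0.16 (0.159).

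The vehicle maximum of LAMA5 was replicate 5 and its 1000 pM maximum replicate 6, both among the 4 arrays with a high actin difference, and all 4 lay above the other 45 relative to their groups. Without them the difference was −0.30 ± 0.07 at 100 pM (limma adjusted p = 0.00121) and −0.28 ± 0.07 at 1000 pM (0.00492), with vehicle at 8.15 to 8.55 and 1000 pM at 7.88 to 8.07, so that these groups no longer overlapped. With only vehicle replicate 5 left out, the difference at 100 pM was also −0.30 but its adjusted p was 0.19. That call was further lost without vehicle replicate 1 or without 100 pM replicate 1, 3 or 4 (0.0517 to 0.0674).

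LAMB1 and LAMB2 are the beta chains that join LAMA5 and LAMC1. LAMB1 ranged from 8.13 to 8.39 in vehicle (median 8.17) and from 7.64 to 8.17 at 1000 pM (8.00), a difference of −0.26 ± 0.09 that did not pass (limma adjusted p = 0.081). LAMB2 had the largest SD within groups of the 17 genes, with vehicle arrays from 6.36 to 8.67, and its difference at 1000 pM was −0.48 ± 0.29 (0.372). The 4 arrays were again the highest relative to their groups for LAMB2. Its SD within groups was 0.52 with them and 0.29 without them.

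**Figure D4:**
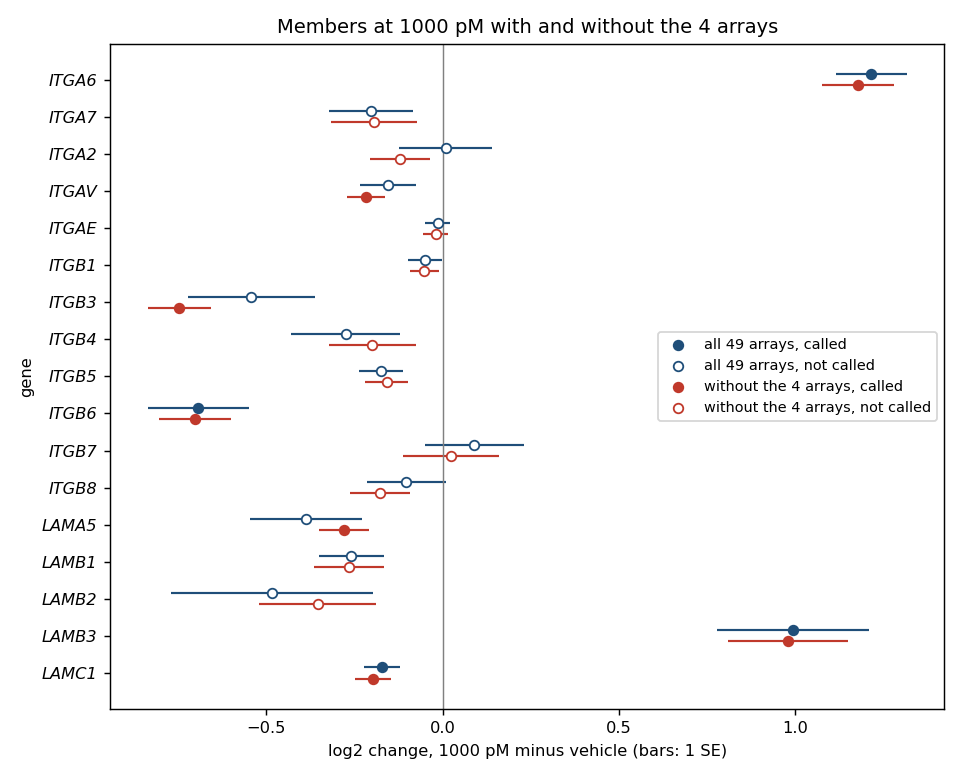
Log2 change at 1000 pM against vehicle (horizontal axis, bars 1 SE) of the 17 measured genes, with all 49 arrays (blue) and without the 4 arrays with a high actin difference (red). Filled points have a limma adjusted p under 0.05. ITGA6, LAMB3, ITGB6 and LAMC1 are filled in both, and ITGAV, ITGB3 and LAMA5 are filled only without the 4 arrays.

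The 4 arrays moved several of these genes together. Relative to the other arrays of their groups, all 4 lay above the range of the remaining 45 for LAMA5, LAMB2 and LAMB3, and all 4 lay below it for ITGAV, ITGB3 and ITGB6. For ITGA6 all 4 lay below the mean of the other arrays of their groups, at −0.31 to −0.05, but none lay outside the range of the 45 (−0.35 to 0.36). Without the 4 arrays 7 of the 17 genes passed at 1000 pM (2 higher and 5 lower, beside 8.81% of all genes), 7 at 100 pM (2 higher and 5 lower, beside 11% of all genes) and 3 at 10 pM (1 higher and 2 lower, beside 1.39%).

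A comparison that used no vehicle array set the mean of the 100 and 1000 pM groups against the mean of the 0.1 and 0.3 pM groups. In it 8 of the 17 genes passed, 2 higher and 6 lower, beside 13% of all genes tested (5.05% higher and 7.91% lower). ITGA6 (1.18 ± 0.07) and LAMB3 (0.89 ± 0.15, limma adjusted p = 1.27e-05) were the higher ones. The lower ones were ITGB3 (−0.67 ± 0.13, 7.7e-05), ITGB6 (−0.64 ± 0.10, 2.25e-06), LAMA5 (−0.35 ± 0.11, 0.0262), LAMC1 (−0.25 ± 0.04, 5.09e-07), LAMB1 (−0.19 ± 0.06, 0.0388) and ITGAV (−0.18 ± 0.06, 0.0243).

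This contrast uses the same 100 and 1000 pM arrays as the comparisons with vehicle and is no independent repeat of them. ITGB3 and ITGB6 held without any single array. The call of LAMB1 was lost in 14 of 25 fits that left out 1 array (adjusted p up to 0.108), that of ITGAV without 100 pM replicate 5 or 1000 pM replicate 6 (up to 0.0602), and that of LAMA5 without 0.1 pM replicate 2 or 0.3 pM replicate 2 (up to 0.0572). A second probe set of LAMB1 gave −0.29 ± 0.10 in this contrast and did not pass (limma adjusted p = 0.0585). When the 4 arrays were left out 11 genes passed, beside 21.2% of all genes. A test of any difference over the 8 groups passed for 5 genes (ITGA6, ITGB3, ITGB6, LAMB3 and LAMC1), beside 6.99% of all genes.

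Of the steps between consecutive concentrations, only that of ITGA6 from 10 to 100 pM passed, beside 0.984% of all genes in that step. In these 2 groups arrays of the same replicate number deviated together. With the replicate number as a block within the 2 groups, 5 members passed in this step, beside 8.25% of all genes: ITGA6 (0.72 ± 0.05) and LAMB3 (0.42 ± 0.05, limma adjusted p = 4.57e-07) rose, and LAMA5 (−0.25 ± 0.04, 1.18e-04), LAMC1 (−0.14 ± 0.03, 0.00152) and ITGB3 (−0.24 ± 0.07, 0.0409) fell. From 1 to 3 pM and from 3 to 10 pM 0 members passed, beside 0.00903% and 0.153% of all genes. From 100 to 1000 pM 0 members passed, with or without the block, and 0% of all genes did.

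Curves fitted to the log2 levels of the 4 genes called at 1000 pM gave the concentration at the midpoint of each change. It was 18.2 pM for ITGA6 (95% interval 11.5 to 28.8 pM), 43.7 pM for LAMB3 (9.55 to 219 pM), 9.12 pM for ITGB6 (2.63 to 60.3 pM) and 12.0 pM for LAMC1 (3.80 to 43.7 pM). The intervals overlapped, so no order of the genes can be read from them. The midpoint without the 4 arrays was, for ITGB6, 5.75 pM (2.63 to 13.8 pM) and for LAMB3 25.1 pM (9.12 to 87.1 pM), and for ITGA6 it was again 18.2 pM.

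Over the comparisons with vehicle and the contrast without it, 9 of the 17 measured genes passed at least once with all arrays, beside 16.4% of all genes tested. The other 8 were ITGA2, ITGAE, ITGB1, ITGB4, ITGB5, ITGB7, ITGB8 and LAMB2. Their differences from vehicle lay between −0.74 (LAMB2 at 100 pM, limma adjusted p = 0.0843) and 0.22, and the lowest adjusted p among them at 1000 pM was 0.0804 (ITGB5).

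The genes around these receptors were read from 3 lists. Of 20 other integrin ligands 14 were measured, and at 1000 pM 2 were higher, 7 were lower and 5 did not pass, beside the 7.21% of all genes that passed there (2.88% higher and 4.33% lower), with a median log2 change of −0.40. THBS1, the matrix glycoprotein thrombospondin, rose from 9.15 ± 0.35 in vehicle to 10.69 ± 0.09 (SD, n = 6 each), 2.90-fold (limma adjusted p = 4.91e-15), and COL1A2, a chain of type I collagen, rose from 7.45 ± 0.27 to 8.53 ± 0.18, 2.10-fold (1.12e-07). COL1A1, the other chain of type I collagen, went the opposite way, from 8.79 ± 0.36 to 8.13 ± 0.14 (limma adjusted p = 0.00226), and is named here after its values were seen. MFGE8, which binds ITGAV integrins through an RGD site, went from 6.09 ± 0.77 to 4.66 ± 0.47 (limma adjusted p = 2.16e-04), and CCN2, a matricellular protein that binds several integrins, from 7.96 ± 0.44 to 6.70 ± 0.19 (4.9e-07). L1CAM, an adhesion molecule that can bind RGD-directed integrins, was under the floor on every array at 1000 pM. With the floor in place of those values, L1CAM was at least 1.55-fold lower, a bound that was not tested. The values as deposited gave −1.16 ± 0.20 (limma adjusted p = 2.34e-05). For each of these 6 genes, 6 of 6 arrays at 1000 pM shared the direction of the change.

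Of 22 basement membrane partners and other laminin receptors 17 were measured, and at 1000 pM 0 were higher, 2 were lower and 15 did not pass (median −0.27). With 7.21% of all genes passing at 1000 pM, 2 of 17 is near the background and is no result about this list. NTN4, a netrin that binds laminin gamma chains, changed by −0.76 ± 0.20 (limma adjusted p = 0.0118), and HSPG2, the heparan sulphate proteoglycan perlecan, by −0.60 ± 0.16 (0.0103). The count of lower genes was 5 without the 4 arrays (beside 8.81% of all genes), 6 without vehicle replicate 6 and 4 without 1000 pM replicate 6. For the fits without a single array the share of all genes is not given.

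Of 30 adaptors and signalling genes on the inner side of integrins 24 were measured, with 0 higher, 5 lower and 19 that did not pass (median −0.21), beside 7.21% of all genes (2.88% higher and 4.33% lower). The lower ones were TNS1, the actin linker tensin (−0.67 ± 0.20, limma adjusted p = 0.0309), ILK, the integrin-linked pseudokinase (−0.47 ± 0.09, 2.35e-04), NEDD9, a docking protein of focal adhesions (−0.37 ± 0.06, 1.1e-05), VCL, vinculin (−0.25 ± 0.06, 0.0036) and CIB1, a calcium-binding partner of integrin tails (−0.20 ± 0.05, 0.0137). The count was 8 without the 4 arrays, without vehicle replicate 6 or without 1000 pM replicate 6, with 1 of the 8 higher in the first and last case, and 8.81% of all genes passed without the 4 arrays. The shares of all genes without either single array are not given. The medians of the 3 lists lay below that of all genes (−0.01), and whether a list differed from other genes was not tested.

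**Figure D5:**
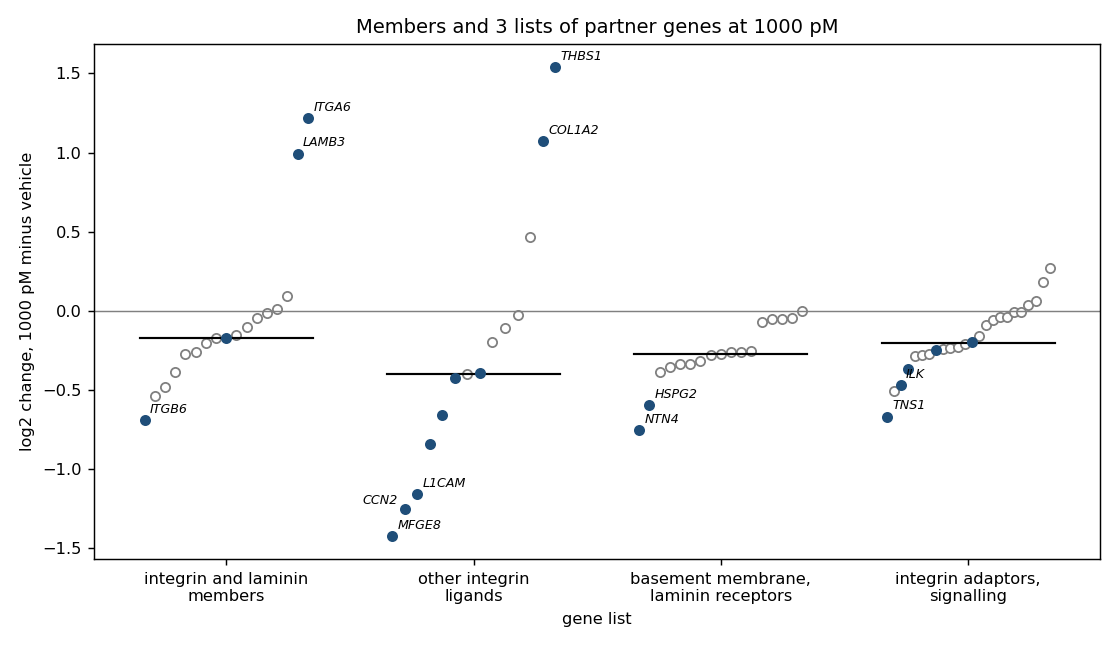
Log2 change at 1000 pM against vehicle (vertical axis) of the measured members and of the measured genes in 3 lists (horizontal axis), sorted within each list. Filled points have a limma adjusted p under 0.05, and black lines are medians (−0.17, −0.40, −0.27 and −0.21 from left to right). ITGA6, LAMB3, THBS1 and COL1A2 are the filled points above 0.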

How the data were processed

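RNA from each sample was hybridized to its own array (Affymetrix HT HG-U133 Plus PM). The deposited values are log2 levels made by the authors with GCRMA and Partek, per the submitters' processing notes, with no version given. GCRMA draws dim signals toward a floor, so small values carry uncertain changes. The number of arrays limits the precision, and all 49 columns of values were mapped to a sample through their labels.

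Symbols came from the platform annotation (40920 of 54715 probe sets had 1 symbol, 864 several and 12931 none). The probe set with the highest mean stood for a gene, and genes above log2 4 on at least 6 arrays were tested (11075). A mean for each of the 8 groups was estimated in limma (version 3.58.1 under R 4.3.3, eBayes with trend), with Benjamini-Hochberg adjustment over all genes within each contrast and a threshold of 0.05. Further probe sets of a member were tested in a separate limma fit of all probe sets with 1 symbol above the same floor, adjusted over those probe sets. Midpoints came from Hill curves of slope 1 fitted to log2 levels, with 95% intervals from the F distribution. The fit and the curves were tested on simulated data with independent normal noise, and the simulated curves had the same slope of 1. These simulations could not test the choice of slope or the effect of arrays of low quality. Figures were drawn with matplotlib 3.10.9.

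The members, the gene lists and the tests were chosen with earlier results of these data known. Members called in a comparison with vehicle or in the contrast without vehicle are described in full, the other members by ranges, and from each list the called genes with the largest change, at most 5 per list. The 4 arrays exceeded the median actin difference by over 4 median absolute deviations, a limit set after one of 5 had taken 2 arrays (vehicle replicate 5 and 0.3 pM replicate 2).

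Replicate numbers were taken to pair arrays where all 6 same-numbered pairs deviated from their group means with a correlation over 0.1. This held for 3 against 1 pM (lowest 0.206), 10 against 3 pM (0.220) and 100 against 10 pM (0.271), and for no comparison with vehicle. It was inferred from the values alone. The labels give no batch.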

Additional observations from a re-analysis of the deposited data

Results flagged for a closer look

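In 14 of 72 groups tested (9 genes, namely the members called with all arrays, in 8 groups each), 1 array lay far from the others of its group by Dixon's test. Chance alone flags about 1 in 20 groups. The 4 arrays with a high actin difference held 10 of the 14.

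ITGAV was low in replicate 5 of vehicle (log2 9.362), in replicate 2 at 0.3 pM (9.733) and in replicate 6 at 3 pM (9.717). It was also low in replicate 5 at 100 pM (9.632), which is not among the 4 arrays. ITGB3 was low in vehicle replicate 5 (4.009). ITGB6 was low in vehicle replicate 5 (6.196) and in 100 pM replicate 6 (6.252). LAMA5 was high in all 4 of those arrays: replicate 5 of vehicle (9.549), replicate 2 at 0.3 pM (9.065) and replicate 6 at 3 pM (9.147) and at 1000 pM (8.623). LAMB3 was high in 3 pM replicate 6 (7.533), LAMB1 was high in 1 pM replicate 2 (8.668), and LAMC1 was low in 10 pM replicate 5 (10.39). The cause of these values was not tested.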

How the results depend on the processing

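Of 697 values of single genes under other settings, 588 kept direction and call, 109 kept direction without passing and 0 turned. Only genes and contrasts called with all arrays entered this count, so calls gained under other settings are not in it. Many of these fits left out 1 array or 1 replicate number and so shared most arrays. Counts of members called (with all arrays 1 at 10 pM, 5 at 100 pM, 4 at 1000 pM, 8 in the contrast without vehicle, 1 between steps and 5 over the 8 groups) moved as follows. Array weights gave 3, 8, 9, 13, 2 and 8 (of all genes, leaving out the steps, 1.44%, 12.9%, 10.2%, 26.8% and 13.7%). The actin difference as a covariate, chosen after seeing the data, gave 2 at 10 pM, 8 at 100 pM, 8 at 1000 pM and 8 over the groups (1.23%, 9.86%, 10.3% and 11.9% of all genes). Leaving out the 4 arrays gave 3 at 10 pM, 7 at 1000 pM (1.39% and 8.81%) and 2 between steps. With no filter 3 passed at 100 pM (4.64% of all genes). An adjusted p under 0.01 left 0 at 10 pM, 2 at 100 pM and 5 without vehicle (0.533%, 4.35% and 8.36%).

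A fit of only the groups compared gave 0, 1 and 2 at 10, 100 and 1000 pM (0.298%, 2.62% and 2.78% of all genes) and 2 between steps. The replicate block over all groups gave 1, 6, 5 and 9 members at 10, 100 and 1000 pM and without vehicle (1.09%, 11.8%, 8.41% and 15.2% of all genes). The replicate block within only the groups compared, added after seeing the data, gave 0, 1, 1 and 9 (0.199%, 1.96%, 1.92% and 15.7%), and 5 between steps. In comparisons with vehicle, some but not all same-numbered pairs deviated together, and the labels do not say what a replicate number shares.

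At 1000 pM, basement membrane genes called (2 with all arrays) numbered 7 with array weights, 1 with only the groups compared, 5 with the replicate block, 1 with it within the groups, 5 without the 4 arrays, 4 without 2, 0 at 0.01 and 6 with the covariate. Adaptors (5) numbered 2 with only the groups, 0 with the block within them, 8 without the 4 arrays, 3 at 0.01 and 8 with the covariate. Ligands (9) numbered 4 with the block within the groups. At 0.01, 4.38% of all genes passed at 1000 pM; for the other settings the shares at 1000 pM stand above, except for that without 2 arrays.

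Leaving out 1 array or 1 replicate number gave 0 to 1 members at 10 pM, 1 to 7 at 100 pM, 3 to 6 at 1000 pM, 5 to 8 without vehicle, 1 between steps, 4 to 6 over the groups, 1 to 7 basement membrane genes, 3 to 8 adaptors and 7 to 10 ligands. The shares of all genes in these fits are not given. Nor are those for the steps with array weights, without the 4 arrays and with only the groups compared. Whether these counts moved with the share of all genes therefore cannot be read from them. Single arrays that moved the 100 pM count by over 1.5 times were vehicle replicate 3 and 100 pM replicates 1 and 6 (3 members left each) and 100 pM replicates 3 and 4 (2 left each). The causes were not tested. Signal near the floor limits ITGB7 and the 18 genes not measured. It also limits ITGA7 (4.20 to 5.25 over all arrays), ITGB4 (4.38 to 5.78) and the second probe set of ITGB3.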
